A study of Mus musculus with 75 samples.

Results

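The Hox cluster genes are the 39 mouse genes whose symbols join Hoxa, Hoxb, Hoxc or Hoxd to a number, and they were taken by symbol alone, without use of any measured value. They were 39 of the 24984 genes in each count table. In the RefSeq annotation of GRCm38 they lay in 4 clusters: 11 genes of Hoxa on chromosome 6 (52155367 to 52260880), 10 of Hoxb on chromosome 11 (96194316 to 96368253), 9 of Hoxc on chromosome 15 (102921131 to 103036852) and 9 of Hoxd on chromosome 2 (74668225 to 74765142).

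Hox genes encode homeodomain transcription factors that give cells their position along the body axis and the limbs. Within a cluster the genes stand in the order of their numbers, the paralogue groups, and low-numbered genes are generally used toward the head and high-numbered genes toward the trunk, tail and the ends of the limbs. Skin fibroblasts of adult animals are known to keep a Hox code that reflects where in the body they came from. The clusters are held by the opposed Polycomb and Trithorax complexes, and Hox proteins bind DNA together with TALE homeodomain cofactors such as Pbx and Meis.

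RNA-seq and ATAC-seq, which maps open chromatin with a transposase, followed skin fibroblasts of C57BL/6 mice through replicative senescence at passages P1, P3, P5 and P7. The passage cells were untreated and came from female mice of 2 months, with 4 RNA libraries at each passage and 4, 3, 3 and 3 ATAC samples at P1, P3, P5 and P7. The senescence regulators E2f4, Tead1 and Atf3 were manipulated in further fibroblasts of the same strain with lentiviral vectors. E2f4 OE cells (2 libraries) carried a doxycycline-induced E2f4 cDNA and their controls (2 libraries) the vector, which expressed EGFP under the same culture. Knockdown cells expressed a short hairpin RNA after puromycin selection: E2f4 sh1 with its control E2f4 nt, Tead1 sh3 and Tead1 sh4 with Tead1 nt, and Atf3 sh5 and Atf3 sh6 with Atf3 nt, 3 libraries each. The 2 Tead1 hairpins shared 1 control group, as did the 2 Atf3 hairpins. Manipulated cells came from newborn mice or mice of 2 months, the labels do not say which for any library, and they do not say whether replicates came from separate animals or cultures, so p-values measure only the spread between these libraries.

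The 44 RNA libraries held 9147324 to 27552949 counts in genes. E2f4 was at 1118 to 1180 CPM, the count scaled to the size of the library, in E2f4 OE and at 35.5 to 47.5 CPM in its control, and at 20.4 to 21.8 CPM in E2f4 sh1 against 59.6 to 60.8 CPM in E2f4 nt. Tead1 was at 268 to 285 CPM with sh3, at 313 to 320 CPM with sh4 and at 508 to 572 CPM in Tead1 nt. Atf3 was already low in Atf3 nt, at 2.77 to 3.31 CPM, against 0.451 to 2.1 CPM with sh5 and 1.51 to 2.09 CPM with sh6. The 8 fibroblast markers were detected in every group, at a summed 19161 to 21493 CPM in P1 and 31605 to 33903 CPM in P7. The P1 libraries also held RNA of other skin cells: 6 keratinocyte markers summed to 55.5 to 356 CPM in P1 and 4.73 to 7.72 CPM in P7 with Krt14 and Krt1 at 0, 6 macrophage markers to 279 to 427 CPM and 33.6 to 48.7 CPM, 7 skeletal muscle markers to 148 to 240 CPM and 39.1 to 110 CPM with Myog and Myod1 at 0 in P7, 4 endothelial markers to 126 to 132 CPM and 6.98 to 9.49 CPM, and 3 adipocyte markers to 44.6 to 58.4 CPM and 1.19 to 5.84 CPM with Adipoq and Plin1 at 0 in P7. Schwann cell and melanocyte markers (5 genes) summed to 37.7 to 45.5 CPM in P1 and 40.6 to 121 CPM in P7, with Dct at 0 in P7. The part of these cells in the Hox values of P1 was not tested. Between P3 and P7 the keratinocyte and macrophage sums were closer (1.78 to 4.34 and 39.2 to 55.8 CPM in P3), whereas the endothelial sum was lower again (33.7 to 38.1 CPM in P3). Single markers still moved at an edgeR adjusted p under 0.05. Of 6 macrophage markers 4 were lower and 1, Csf1r, higher (mean 8.84 CPM in P3, 21.8 in P7). Of 6 tested skeletal muscle markers 5 were lower and 1, Acta1, higher (46.5 and 71 CPM), and of 5 tested keratinocyte markers 1 was higher. P7 against P3 is given beside P7 against P1, and other cells changed there too. In such bulk samples fewer cells of a type and less RNA per cell cannot be told apart.

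In the passaged fibroblasts the highest Hox levels lay in paralogue groups 6 to 10 of Hoxb and Hoxc. Per kb of exon and averaged over the 16 passage libraries, Hoxb9, a patterning gene of the thorax, stood at 29.6 CPM per kb and Hoxc6, another thoracic gene, at 29.2 CPM per kb. Their order changed with passage: Hoxc6 was the higher in P1, at 24.2 against 15.8 CPM per kb, and Hoxb9 in P5, at 37.4 against 32.2, and in P7, at 37.9 against 35.1 CPM per kb. Below them came Hoxc8 at 20.1 CPM per kb, Hoxc10 at 16.3, Hoxc9 at 11.3, Hoxd8 at 9.25, Hoxb7 at 8.19 and Hoxb6 at 7.26 CPM per kb. In Hoxa the highest were Hoxa10, at 4.10 CPM per kb, and Hoxa9, at 2.15 CPM per kb. Of the 39 genes, 11 had a mean of at least 10 CPM, 15 lay from 1 to 10 CPM and 13 lay under 1 CPM. Hoxb1, a hindbrain gene, and Hoxd12 had no count in any passage library, and the genes of the digits and tail, Hoxa13 and Hoxd13, were at a mean of 0.00658 and 0.0121 CPM per kb.

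**Figure D1:**
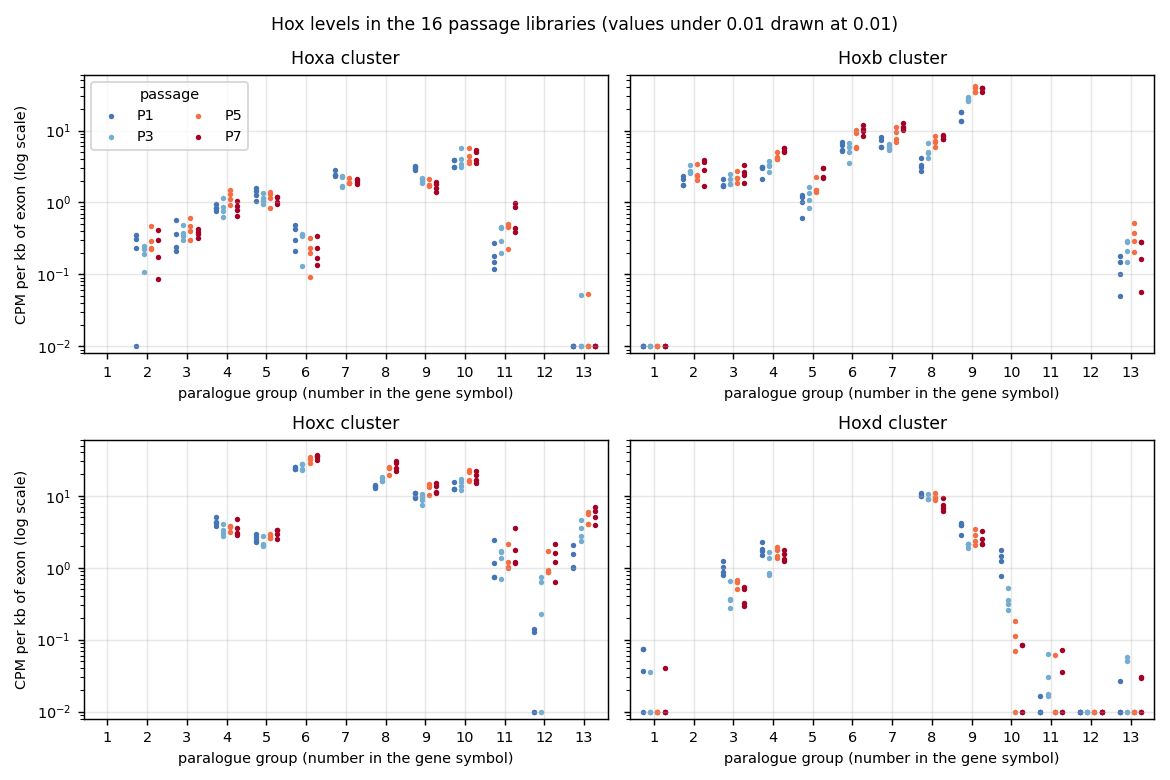
Level of 38 Hox genes in CPM per kb of exon (vertical axis, log scale, values under 0.01 drawn at 0.01) against its paralogue group, 1 panel for each cluster, with each point 1 of the 16 passage libraries coloured by passage. Hoxb and Hoxc peak in groups 6 to 10, Hoxb9 rises from blue to red, and Hoxd10 falls.

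The summed Hox level went from 141 ± 6.29 CPM per kb in P1 to 156 ± 6.75 in P3, 201 ± 8.99 in P5 and 213 ± 13.1 CPM per kb in P7 (SD, n = 4 each). Hoxb went from 39.6 ± 5.23 to 81.1 ± 5.53 CPM per kb between P1 and P7 and Hoxc from 70.7 ± 2.24 to 108 ± 6.19 CPM per kb. Hoxd went from 18.3 ± 1.24 to 11.97 ± 1.73 CPM per kb, and Hoxa stood at 12.7 ± 0.563 and 12.3 ± 1.38 CPM per kb. As a share of the summed level, Hoxb went from 27.9% (25.5 to 30.6%) to 38.0% (37 to 39.7%), while Hoxd went from 12.9% (12.4 to 13.2%) to 5.59% (5.13 to 6.31%), with no overlap of the 4 libraries at P1 and P7 in either case. These sums are given as a description, with no test.

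Of the 39 genes, 31 passed the filter on low counts in the passage fit, and the other 8 (Hoxa2, Hoxa13, Hoxb1, Hoxb13, Hoxd1, Hoxd11, Hoxd12 and Hoxd13) were too low to be tested. Counts over the genes that passed describe those genes and not the whole family. With edgeR's quasi-likelihood test at an adjusted p under 0.05, 16 Hox genes were higher and 5 lower in P7 than in P1, where 30.5% of all 13442 genes tested were higher and 31.9% lower. With a change of more than 2-fold as well, 6 were higher (8.10% of all genes) and 2 lower (13.3%). Among these are Hoxa11 and Hoxc12, higher, and Hoxd10, lower. The low-count filter kept these genes only for the passages where they are high, so no test of any of them is used as a result of its own. The counts of higher and lower genes and the median still include them. The median log2 fold change of the 31 genes was 0.48, and over all genes it was -0.01.

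From P1 to P3, 5 Hox genes were higher (16% of all genes) and 5 lower (17.5%), of which 1 (2.40%) and 2 (6.58%) changed by more than 2-fold, and the median was 0.08 against 0.00 over all genes. From P3 to P7, 13 were higher (24.8% of all genes) and 2 lower (26.5%), of which 2 (4.44%) and 1 (7.41%) changed by more than 2-fold, with a median of 0.32 against -0.01. Hoxd10 is among the genes called lower in both comparisons, and Hoxc12 among those called higher from P3 to P7. Hoxa11 is among the 13 that were higher from P3 to P7. With these genes counted, the share of higher Hox genes was above the background against P3 as well, and both comparisons share the P7 libraries. Hoxa11 and Hoxc12 add to the higher genes in both comparisons, and the filter kept them for later passages. Shares and medians without Hoxa11, Hoxc12 and Hoxd10 were not computed, so how far the excess rests on such genes was not tested.

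**Figure D2:**
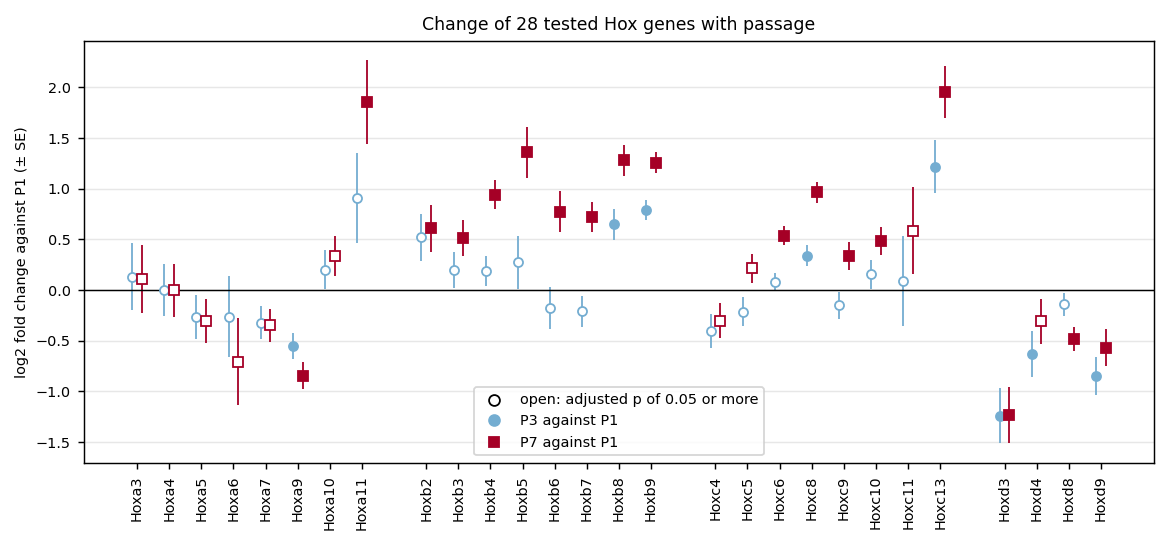
Log2 fold change of 28 tested Hox genes (without Hoxc12 and Hoxd10) in P3 (circles) and P7 (squares) against P1, with SE bars, in cluster order; filled symbols have an adjusted p under 0.05 and open symbols do not. All 8 tested Hoxb genes lie above 0 at P7, with filled squares, whereas the filled squares of Hoxd lie below 0. Hoxa11 is drawn as well, though no test of it is used.

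In Hoxb every tested gene passed. Hoxb9 was at 36.6, 37.2, 48.3 and 48.6 CPM in P1, at 74.5, 70.2, 78.3 and 72.4 in P3, at 107, 92.7, 111 and 93.9 in P5 and at 105, 104, 106 and 93.8 CPM in P7. The P1, P3 and P7 libraries formed separate groups, each above the one before, and P5 and P7 overlapped. The log2 fold change (± SE, as in all fold changes that follow) was 0.79 ± 0.10, edgeR adjusted p = 5.64e-06 for P3 against P1, 1.26 ± 0.10, edgeR adjusted p = 2.14e-09 for P7 against P1 and 0.47 ± 0.10, edgeR adjusted p = 0.000587 for P7 against P3.

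Its neighbour Hoxb8, a patterning gene of the trunk, was at 8.22, 7.27, 10.9 and 8.72 CPM in P1, 12.8, 11, 17.9 and 13.3 in P3, 18.9, 15.8, 22.2 and 18.4 in P5 and 22.5, 20.1, 22.7 and 20.1 CPM in P7. Every P3 library was above every P1 library and every P7 library above both, and P7 against P1 gave 1.28 ± 0.15, edgeR adjusted p = 5.57e-07 and P7 against P3 0.63 ± 0.15, edgeR adjusted p = 0.00154. Hoxb5, which positions the forelimb in the embryo, was at 1.92, 1.16, 2.39 and 2.23 CPM in P1, 2.04, 1.58, 2.58 and 3.15 in P3, 2.78, 2.63, 4.26 and 2.85 in P5 and 5.65, 4.17, 4.3 and 5.72 CPM in P7. P1 and P3 overlapped and P7 was above both, with 1.36 ± 0.25, edgeR adjusted p = 0.000101 against P1 and 1.09 ± 0.25, edgeR adjusted p = 0.00117 against P3.

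Hoxb7 had 7.47, 7.54, 9.3 and 10.3 CPM in P1, 7.69, 7.2, 8.19 and 6.88 in P3, 9.82, 8.85, 12 and 14 in P5 and 14.2, 13.8, 16 and 13.1 CPM in P7. P1 and P3 overlapped, every P7 library was above both, and P7 against P3 gave 0.93 ± 0.15, edgeR adjusted p = 5.03e-05. Hoxb4 and Hoxb6 rose in the same comparisons, with P7 against P1 at 0.94 ± 0.14, edgeR adjusted p = 1.23e-05 and 0.77 ± 0.20, edgeR adjusted p = 0.00244, P7 against P3 at 0.75 ± 0.14, edgeR adjusted p = 0.000242 and 0.95 ± 0.20, edgeR adjusted p = 0.000751, and no overlap of the libraries. Hoxb2 and Hoxb3, the low-numbered end, passed with P1 and P7 libraries that overlapped, at 0.61 ± 0.23, edgeR adjusted p = 0.0274 and 0.52 ± 0.18, edgeR adjusted p = 0.0156, and each call was lost when some single library was left out. Against P3 neither passed (0.09 ± 0.22, edgeR adjusted p = 0.76 and 0.32 ± 0.17, edgeR adjusted p = 0.132). Reads were counted without strand, and 20.5% of the exon bases of Hoxb2 and 1.69% of those of Hoxb3 are shared with the antisense gene Hoxb3os, so reads of these pairs cannot be told apart.

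In Hoxc a high-numbered gene rose by more than 2-fold. Hoxc13, a regulator of hair and nail keratins, was at 2.47, 5.1, 2.39 and 3.77 CPM in P1, 6.64, 11.2, 5.67 and 8.56 in P3, 9.76, 14.7, 10 and 13.8 in P5 and 12.2, 16.8, 9.61 and 14.8 CPM in P7. All P3 libraries were above all P1 libraries, and P7 overlapped P3. The log2 fold change was 1.22 ± 0.26, edgeR adjusted p = 0.00133 for P3 against P1, 1.96 ± 0.26, edgeR adjusted p = 2.01e-06 for P7 against P1 and 0.74 ± 0.24, edgeR adjusted p = 0.0145 for P7 against P3, the last of which was lost without some single libraries. The keratinocyte marker sum was 55.5 to 356 CPM in P1, 1.78 to 4.34 in P3 and 4.73 to 7.72 CPM in P7, and its part in the values of Hoxc13 was not tested.

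Hoxc12 had 0, 0.136, 0 and 0.124 CPM in P1, 0.723, 0.617, 0 and 0.219 in P3, 0.84, 0.899, 0.84 and 1.65 in P5 and 0.611, 2.08, 1.15 and 1.56 CPM in P7. Summed over libraries it went from 4 counts at P1 to 71 at P7 with no overlap of the libraries, while P3 and P7 overlapped. Its mean level fell below the limit set for naming a gene, as did that of Hoxd10, and both are named because of their values. The low-count filter kept Hoxc12 for its P5 and P7 libraries and Hoxd10 for its P1 libraries, so both are given as a description, with no test.

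The abundant Hoxc genes rose by smaller steps. Hoxc6 had 37.3, 37.3, 39.9 and 39.4 CPM in P1, 44.4, 36.1, 44.6 and 37.3 in P3, 51.9, 45.2, 55.7 and 52.4 in P5 and 59.6, 50.7, 57.8 and 55.1 CPM in P7. Hoxc8, which specifies thoracic identity, had 31.2, 32.9, 30.7 and 33.4 CPM in P1, 38.1, 42.1, 38.5 and 43.4 in P3, 59.1, 57.7, 56.9 and 46.7 in P5 and 68.2, 52.1, 72.9 and 57.3 CPM in P7. The P7 libraries were above all P1 and all P3 libraries for both genes, and P7 against P1 gave 0.54 ± 0.09, edgeR adjusted p = 4.39e-05 for Hoxc6 and 0.97 ± 0.10, edgeR adjusted p = 1.66e-07 for Hoxc8, and P7 against P3 gave 0.46 ± 0.09, edgeR adjusted p = 0.000384 and 0.63 ± 0.10, edgeR adjusted p = 6.08e-05. Hoxc10 passed at 0.48 ± 0.14, edgeR adjusted p = 0.00607 with overlapping libraries and did not pass against P3 (0.33 ± 0.14, edgeR adjusted p = 0.0606). Hoxc9 passed at 0.34 ± 0.14, edgeR adjusted p = 0.0366, a call that was lost without some single libraries and with a stricter filter, and it passed against P3 as well (0.49 ± 0.14, edgeR adjusted p = 0.00574). Hoxc4, Hoxc5 and Hoxc11 did not pass between P1 and P7.

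Among the Hoxa members whose tests are given here, Hoxa9 alone passed between P1 and P7, and it was lower. Hoxa9, a gene of the trunk and of blood stem cells, was at 10.2, 10.1, 9.02 and 9.84 CPM in P1, 7.16, 6.1, 6.9 and 6.51 in P3, 5.56, 6.91, 5.49 and 5.56 in P5 and 5.8, 6.25, 4.53 and 5.2 CPM in P7. Every later library lay below every P1 library, with -0.55 ± 0.13, edgeR adjusted p = 0.00319 for P3 and -0.84 ± 0.14, edgeR adjusted p = 2.18e-05 for P7 against P1, while P7 against P3 did not pass (-0.29 ± 0.14, edgeR adjusted p = 0.0833). Hoxa10, next to it, had 12.3, 12.4, 9.84 and 9.9 CPM in P1, 12.6, 17.8, 10.8 and 9.87 in P3, 14.1, 17.9, 11 and 11.8 in P5 and 17.1, 15.8, 11.1 and 12.1 CPM in P7, and its groups overlapped throughout.

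Hoxa11, which patterns the forearm, was at 0.411, 0.272, 0.342 and 0.619 CPM in P1, 0.657, 1.03, 0.451 and 1.02 in P3, 1.16, 1.04, 0.517 and 1.06 in P5 and 1.98, 2.24, 0.999 and 0.891 CPM in P7. Summed over libraries it went from 25 counts at P1 to 80 at P7, and all P7 libraries were above all P1 libraries. P7 overlapped P3. The low-count filter kept Hoxa11 only for passages after P1, so it is given as a description, with no test. Of its exon bases, 24.8% are shared with the antisense gene Hoxa11os. Hoxa3, Hoxa4, Hoxa5, Hoxa6, Hoxa7 and Hoxa10 did not pass between P1 and P7.

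The Hoxd genes that passed between P1 and P7 and whose tests are used, Hoxd3, Hoxd8 and Hoxd9, were lower in P7. The values of Hoxd10 come first, as a description with no test. Hoxd10, a gene of the hindlimb and lumbar spinal cord, was at 1.44, 3.26, 2.32 and 2.66 CPM in P1, 0.657, 0.48, 0.967 and 0.585 in P3, 0, 0.207, 0.129 and 0.331 in P5 and 0, 0.154, 0.154 and 0 CPM in P7. P1 held 146 counts in all, P3 40 and P7 4, and P1, P3 and P7 did not overlap. The marker sum of endothelium went from 126 to 132 CPM in P1 to 33.7 to 38.1 in P3 and 6.98 to 9.49 CPM in P7, and its part in the values of Hoxd10 was not tested.

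Hoxd3, a gene of the neck vertebrae, was at 2.95, 2.31, 3.55 and 2.54 CPM in P1, 1.05, 1.03, 1.87 and 0.805 in P3, 1.81, 1.45, 1.94 and 1.85 in P5 and 1.45, 0.926, 0.845 and 1.56 CPM in P7. P3 and P7 both lay below P1 (-1.24 ± 0.27, edgeR adjusted p = 0.00161 and -1.24 ± 0.28, edgeR adjusted p = 0.000673) and overlapped each other (0.00 ± 0.31, edgeR adjusted p = 0.999 for P7 against P3). Hoxd9 had 8.36, 5.91, 8.27 and 8.79 CPM in P1, 4.47, 3.98, 4.45 and 4.54 in P3, 4.33, 4.91, 6.07 and 7.28 in P5 and 6.79, 4.48, 4.53 and 5.34 CPM in P7, so that P3 lay below P1 (-0.85 ± 0.18, edgeR adjusted p = 0.00156) and P7 overlapped both, although it passed against P1 (-0.57 ± 0.18, edgeR adjusted p = 0.0114) and not against P3 (0.28 ± 0.19, edgeR adjusted p = 0.232). Hoxd8, the most abundant Hoxd gene per kb, had 21.6, 21.8, 23.1 and 23.6 CPM in P1, 19.7, 19.3, 23.1 and 19.5 in P3, 18.9, 20.5, 23.6 and 20.3 in P5 and 20.2, 14.6, 16.3 and 13.4 CPM in P7. Its P7 libraries were below all P1 libraries (-0.48 ± 0.12, edgeR adjusted p = 0.00162) and 1 of them overlapped the P3 libraries (-0.34 ± 0.12, edgeR adjusted p = 0.0227 for P7 against P3, lost in some alternatives). Hoxd4 passed at P3 only (-0.63 ± 0.23, edgeR adjusted p = 0.0361), with overlapping libraries and a call that was lost without some single libraries.

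**Figure D3:**
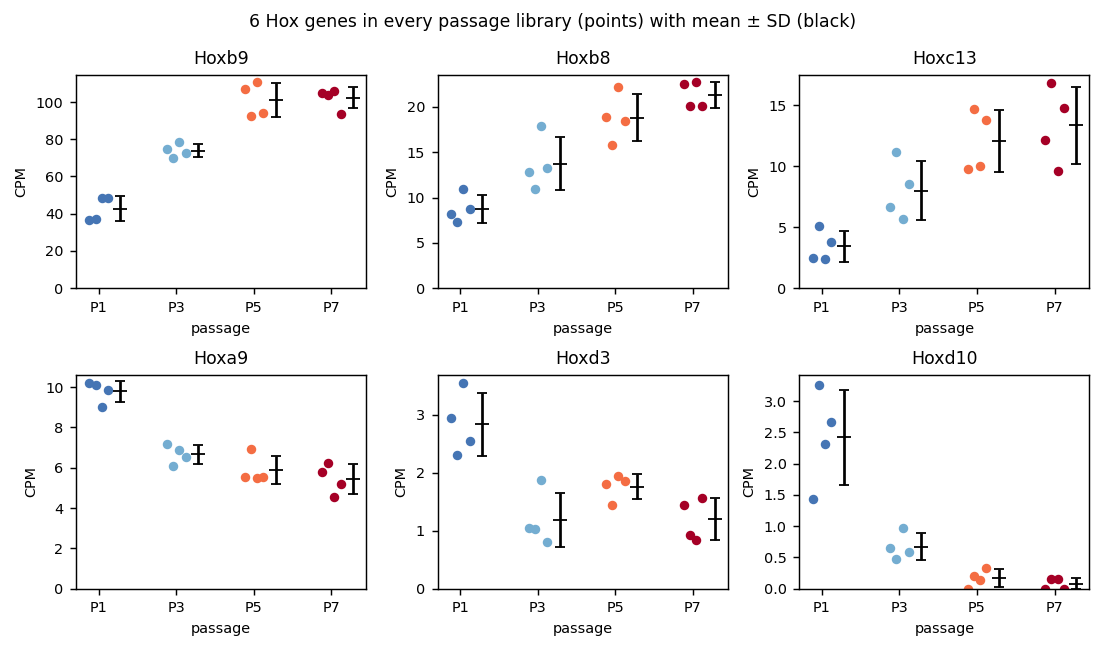
CPM of 6 Hox genes (1 panel each, vertical axes from 0) in each of the 4 libraries at P1, P3, P5 and P7, with mean ± SD in black. Hoxb9, Hoxb8 and Hoxc13 rise with passage, and Hoxa9, Hoxd3 and Hoxd10 lie highest in P1.

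Open chromatin over the clusters was compared from the deposited peak lists, which carry no read counts, so that the depth of the ATAC samples is unknown. Within the clusters, each widened by 10000 bases on both sides, peaks covered 73852, 66629, 69223 and 70354 bases in the P1 samples and 67533, 55804 and 60484 bases in the P7 samples. The groups overlapped, the ratio of the means was 0.875 and the exact two-sided permutation test over samples gave p = 0.0571, where 4 against 3 samples cannot go below 0.0286. Over the genome the covered bases of P7 were 1.03 times those of P1 (exact permutation p = 0.371). As a share of all covered bases, the clusters went from 0.0751% ± 0.00212 to 0.0637% ± 0.00435 (SD, n = 4 and 3), a ratio of 0.849 with no overlap (exact permutation p = 0.0286).

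By cluster, the covered bases in Hoxc were 20606, 19749, 19722 and 20799 in P1 and 17279, 16165 and 17065 in P7, a ratio of 0.833 without overlap (exact permutation p = 0.0286). In Hoxd they were 15933, 13312, 12968 and 13834 in P1, 10701, 11078 and 10434 in P3 and 12375, 10140 and 11810 in P7, a ratio of 0.817 for P7 and 0.766 for P3 against P1 (exact permutation p = 0.0286 for each). The P1 and P7 samples overlapped in Hoxa, with a ratio of 0.932 (exact permutation p = 0.371), and in Hoxb, with a ratio of 0.916 (exact permutation p = 0.286). Adjusted over the 4 clusters by Benjamini-Hochberg, the values for P7 against P1 were 0.0572 for Hoxc and Hoxd and 0.371 for the others, so none passed 0.05, and that of Hoxd for P3 against P1 was 0.114.

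Of 115 consensus peaks of P7 in the clusters (peaks in more than 60% of the replicates), 13 overlapped no peak of any P1 sample, where 16.3% of all 204266 P7 consensus peaks were gained in this way. Of 97 consensus peaks of P1, 5 were lost by P7, where 4.18% of all 150537 were. The gained peaks lay 4 in Hoxa, 5 in Hoxb, 3 in Hoxc and 1 in Hoxd. Without P7 replicate 1 or 3 the gained peaks were 8, and without P1 replicate 1, P1 replicate 4 or P7 replicate 1 the lost peaks were 11, 9 and 8. The P7 lists were longer, at 1.24 times the peaks of P1, and with equal numbers of peaks from every sample 2 peaks were gained and 9 lost, which turns the balance round. The peaks are described here by the percentile of their -log10 p among all peaks of the same sample, on a scale where a sample without a peak has 0.

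A peak seen at P7 alone lay between Hoxb13 and Hoxb9, 33455 bases from the start site of Hoxb13, where no RefSeq gene is annotated. Its percentile was 20.3, 51.7 and 27.3 in the 3 P7 samples and 0 in all P1, P3 and P5 samples. A neighbouring gained peak, 37964 bases before the start of Hoxb9, had 20.3, 50.5 and 17.6 in P7, 24 in 1 P3 sample and 15.4 in 1 P5 sample, and 0 in P1. In Hoxa a gained peak in an intron of the noncoding gene Hotairm1 had 0 in the 4 P1 samples, 33.6, 34.7 and 1.69 in P3, 44.5, 63.4 and 46.3 in P5, and 67.3, 40.6 and 28.4 in P7. In Hoxc a lost peak 2879 bases before the start of Hoxc10, between genes, had 22.3, 20.6, 0 and 39.8 in P1 and 0 in all later samples.

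The sequences of these 4 peaks are shown because they carry the gains and the loss, on the plus strand of GRCm38 (mm10) as given by RefSeq, with the middle 300 bases of the Hoxa peak of 611 bases; capitals mark matches on either strand to the AP-1 motif TGANTCA, the TEAD motif GGAATG, the E2F motif TTNNCGC or the HOX-PBX motif TGATTNAT.
Hoxb, gained, chr11:96227625-96227918: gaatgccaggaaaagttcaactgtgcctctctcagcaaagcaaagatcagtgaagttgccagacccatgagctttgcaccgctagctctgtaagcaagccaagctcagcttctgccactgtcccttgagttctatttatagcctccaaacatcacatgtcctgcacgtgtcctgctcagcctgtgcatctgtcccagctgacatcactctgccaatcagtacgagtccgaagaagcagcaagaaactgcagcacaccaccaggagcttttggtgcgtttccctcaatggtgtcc
Hoxb, gained, chr11:96233221-96233511: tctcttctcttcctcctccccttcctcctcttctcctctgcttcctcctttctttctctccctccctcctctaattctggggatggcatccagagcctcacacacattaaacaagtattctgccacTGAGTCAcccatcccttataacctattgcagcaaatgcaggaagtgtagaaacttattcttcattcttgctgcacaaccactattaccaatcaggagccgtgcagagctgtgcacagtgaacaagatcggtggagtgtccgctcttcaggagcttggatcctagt
Hoxa, gained, chr6:52160899-52161198: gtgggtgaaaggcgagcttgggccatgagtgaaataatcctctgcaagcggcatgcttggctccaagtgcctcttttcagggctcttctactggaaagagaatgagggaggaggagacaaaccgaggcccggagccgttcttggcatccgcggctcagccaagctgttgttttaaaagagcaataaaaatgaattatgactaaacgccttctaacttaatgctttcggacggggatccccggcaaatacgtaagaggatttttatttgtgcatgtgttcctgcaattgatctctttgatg
Hoxc, lost, chr15:102963801-102964033: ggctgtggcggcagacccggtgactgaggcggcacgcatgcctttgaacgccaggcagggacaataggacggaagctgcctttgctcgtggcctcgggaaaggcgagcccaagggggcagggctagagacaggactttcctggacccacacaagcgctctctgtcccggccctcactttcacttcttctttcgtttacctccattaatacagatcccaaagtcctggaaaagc

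Of the letters shown, those of the second Hoxb peak held the 1 match, to AP-1. The AP-1 and HOX-PBX letters can overlap, as they did in another gained Hoxb peak. In windows of 300 bases around peak centres, 3 of the 13 gained Hox peaks held the AP-1 motif, 4 the TEAD motif, 2 the E2F motif and 3 the HOX-PBX motif. Over all P7 consensus peaks 31.3% held the AP-1 motif, 24.7% the TEAD motif, 8.77% the E2F motif and 7.24% the HOX-PBX motif. Of the 5 lost Hox peaks, 2 held the E2F motif and 0 any of the others, where the P1 consensus peaks held them at 30.4% (AP-1), 22.9% (TEAD), 9.98% (E2F) and 7.12% (HOX-PBX). A match is a description of letters and does not show binding.

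At the promoters, taken as 1000 bases on each side of a start site, 10 of the 39 Hox genes had a stronger peak in every P7 sample than in any P1 sample (Hoxa3, Hoxa5, Hoxb7, Hoxb9, Hoxc6, Hoxc8, Hoxc13, Hoxd10, Hoxd11 and Hoxd12), where 9.73% of 24381 promoters did. In 5 the peak was weaker without overlap (Hoxa7, Hoxa13, Hoxc9, Hoxd8 and Hoxd9), where 21.2% did. Stronger and weaker refer to the percentile, a rank within the sample. When each sample was reduced to its 142384 strongest peaks, an alternative added after seeing the data, 5 were stronger (Hoxa3, Hoxa5, Hoxb9, Hoxc13 and Hoxd11) and 8 weaker, where 4.99% and 30.1% of all promoters were. Hoxb1, Hoxb8 and Hoxd4 had no promoter peak in any sample.

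At Hoxb9 and Hoxc13 both the promoter peak and the transcript were higher in P7 than in P1. The Hoxb9 promoter had percentiles of 82.4, 83.5, 82.4 and 84.7 in P1, 89.2, 86.1 and 94.5 in P3, 95.3, 93.4 and 95.9 in P5 and 96.3, 97.8 and 97.2 in P7. The Hoxc13 promoter had 88.2, 89.6, 88 and 92.1 in P1, 91.9, 91.8 and 91.6 in P3, 95.1, 94.4 and 95.8 in P5, and 95.9, 97.3 and 95.7 in P7. All P5 and P7 samples lay above all P1 samples at both genes.

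At Hoxc9 the promoter peak and the transcript went apart, and at Hoxd11 the transcript was too low to tell. The Hoxd11 promoter went from 54.7, 39.8, 36.9 and 26.6 in P1 to 70.9, 73.9 and 79.4 in P7, and its transcript had 1 count in P1 and 6 in P7 over all libraries, too few for a test. The Hoxc9 promoter went from 45.6, 36.6, 31.4 and 28.2 in P1 to 2.07, 5.99 and 5.93 in P7, whereas its transcript was no lower in P7 than in P1. At Hoxd8 the transcript and the promoter percentile were both lower in P7, with percentiles of 51.9, 51.7, 59.6 and 54.9 in P1 and 40.5, 45.2 and 47.3 in P7. The mean fold enrichment of the same promoter was not lower, at 4.52 in P1 and 5.09 in P7, so a fall in its openness is not shown. Hoxb9, Hoxc13, Hoxd11, Hoxc9 and Hoxd8 kept their direction without overlap at equal numbers of peaks, and Hoxd10, whose lowest P7 sample (87.8) was just above its highest P1 sample (87.3), overlapped there.

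**Figure D4:**
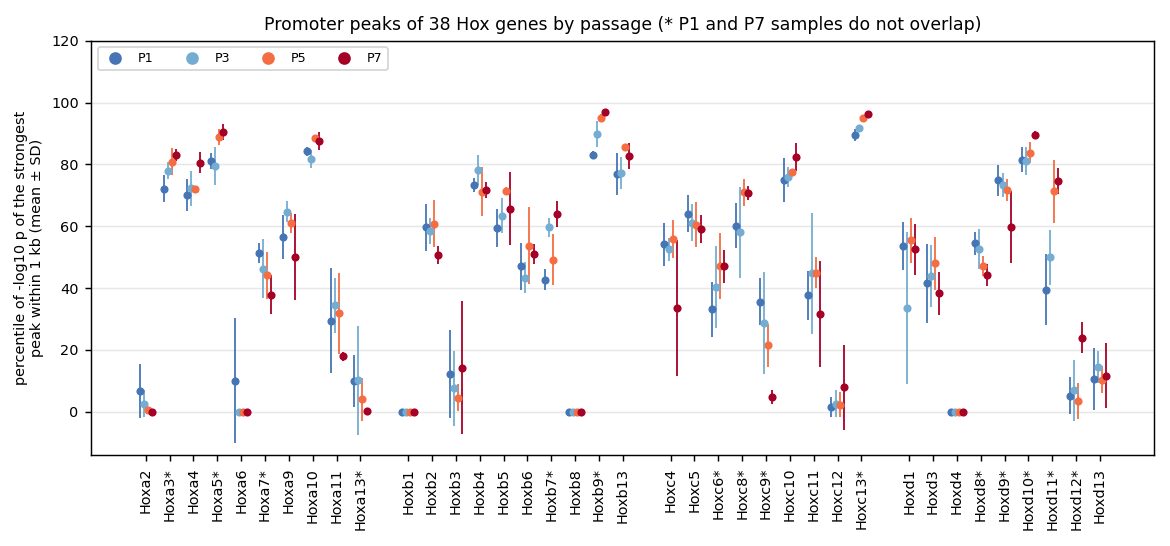
Percentile of -log10 p of the strongest peak within 1 kb of a start site among all peaks of the same sample (mean ± SD, 4 samples at P1 and 3 at each later passage) for 38 Hox genes by passage; 0 stands for no peak and asterisks mark genes whose P1 and P7 samples do not overlap. The red P7 points lie above the blue P1 points at Hoxb9, Hoxc13 and Hoxd11 and far below at Hoxc9.

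The promoters of Hoxd8 and Hoxd11 are printed because the percentiles of their strongest promoter peaks moved in opposite directions within 1 cluster. The mean fold enrichment was higher in P7 than in P1 at both, and for Hoxd11 it was 3.98 in P1 and 10.2 in P7. Each of the 2 genes has 2 start sites and the strongest peak near either was taken. For Hoxd8 only the window of the upstream start is printed, and the ranked peak need not lie under it. For Hoxd11 the rise does not hold for each start. The peak over the downstream window of Hoxd11 had percentiles of 6.69, 3.99, 27 and 6.21 in P1, 0 in all P3 and P5 samples, and 3.61, 0 and 0 in P7. Each window runs from 250 bases before to 50 bases after a RefSeq start site, on the plus strand, which is the strand of these genes, in GRCm38, and capitals mark the same 4 motifs.
Hoxd8, chr2:74704365-74704664: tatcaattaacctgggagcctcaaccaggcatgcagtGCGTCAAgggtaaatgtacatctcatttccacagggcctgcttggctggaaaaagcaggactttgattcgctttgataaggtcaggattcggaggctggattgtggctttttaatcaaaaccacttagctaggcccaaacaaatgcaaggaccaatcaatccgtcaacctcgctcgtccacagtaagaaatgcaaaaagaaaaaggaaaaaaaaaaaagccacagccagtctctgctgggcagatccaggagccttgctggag
Hoxd11, upstream start, chr2:74679308-74679607: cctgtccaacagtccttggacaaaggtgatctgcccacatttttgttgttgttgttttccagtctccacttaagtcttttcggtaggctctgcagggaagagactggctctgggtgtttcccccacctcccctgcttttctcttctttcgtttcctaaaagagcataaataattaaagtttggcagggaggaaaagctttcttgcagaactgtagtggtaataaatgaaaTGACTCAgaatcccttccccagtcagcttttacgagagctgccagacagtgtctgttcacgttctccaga
Hoxd11, downstream start, chr2:74682073-74682372: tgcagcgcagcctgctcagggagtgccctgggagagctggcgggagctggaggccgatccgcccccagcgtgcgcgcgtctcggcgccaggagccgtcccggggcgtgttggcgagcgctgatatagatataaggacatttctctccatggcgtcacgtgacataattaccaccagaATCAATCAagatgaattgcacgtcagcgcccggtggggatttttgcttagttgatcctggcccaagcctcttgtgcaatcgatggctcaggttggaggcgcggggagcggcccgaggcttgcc

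The upstream Hoxd11 window held the AP-1 letters and the downstream window those of HOX-PBX, and the Hoxd8 window the E2F letters. The RefSeq promoter table matched 22 of the 39 Hox genes, with 24 windows, of which 1 held the AP-1 motif, 2 the TEAD motif, 6 the E2F motif and 2 the HOX-PBX motif. Over all 32851 windows of that length the shares were 7.81%, 14.7%, 20.2% and 3.22%.

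The lists of genes that act on or with Hox proteins are read against the 30.5% of all genes that were higher and the 31.9% that were lower in P7 than in P1. Of the 14 Polycomb genes, 8 fell and 2 rose from P1 to P7, with a median log2 fold change of -0.35 against -0.01 over all genes. Ezh2, the methyltransferase of the complex, went from 37.8 ± 0.707 to 10.3 ± 0.662 CPM (log2 fold change -1.87 ± 0.13, edgeR adjusted p = 2.98e-10), and Suz12, its partner, from 102 ± 4.79 to 45.5 ± 5.65 CPM (-1.16 ± 0.12, edgeR adjusted p = 5e-08). Ezh1, the paralogue used in resting cells, rose by 0.37 ± 0.09 (edgeR adjusted p = 0.00156). Of the 10 genes of the Trithorax side 8 fell and 1 rose, the demethylase Kdm6b at 0.72 ± 0.14 (edgeR adjusted p = 0.000135), and the list had a median of -0.46. Against P3, where 24.8% of all genes were higher and 26.5% lower, 0 Polycomb genes were higher and 6 lower, with Ezh2 at -1.88 ± 0.13 (edgeR adjusted p = 8.8e-10), and 0 of the Trithorax side were higher and 6 lower. Ezh1 (edgeR adjusted p = 0.0996) and Kdm6b (edgeR adjusted p = 0.194) did not pass there.

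Among the 9 TALE cofactors 1 rose and 2 fell, shares below those of all genes, and against P3 1 was higher and 3 were lower. Pknox2 went from 15.9 ± 4.94 to 3.89 ± 1.15 CPM (-2.02 ± 0.26, edgeR adjusted p = 1.24e-06), Meis1 fell by 0.47 ± 0.11 on the log2 scale (edgeR adjusted p = 0.00111) and Pbx2 rose by 0.33 ± 0.11 (edgeR adjusted p = 0.0169). Of the upstream signals and insulators, 0 of 6 tested rose and 4 fell, among them the retinoic acid receptor Rarb (-2.61 ± 0.33, edgeR adjusted p = 1.23e-06) and the insulator protein Ctcf (-0.82 ± 0.10, edgeR adjusted p = 1.04e-06). Against P3, 1 of the 6 was higher and 3 were lower. Of 11 other positional genes 4 rose, with Prrx2 at 1.05 ± 0.21 (edgeR adjusted p = 0.000176), and 4 fell, with Meox2 at -1.01 ± 0.23 (edgeR adjusted p = 0.000918), while against P3 2 were higher and 1 lower and Meox2 did not pass (edgeR adjusted p = 0.982). Of 5 noncoding genes of the clusters that were tested, 2 rose, and both are in Hoxb: Hoxb5os at 1.74 ± 0.36 (edgeR adjusted p = 0.000286) and Gm53 at 0.51 ± 0.14 (edgeR adjusted p = 0.00373). Both passed against P3 as well. Hoxb5os spans Hoxb5 on the opposite strand but shares no exon bases with it.

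The interventions began from different Hox profiles. Per the paper, E2f4 was overexpressed in pre-senescent cells and knocked down in proliferating P3 cells, and Atf3 was knocked down in pre-senescent cells. The experiments thus differed in passage as well, and its part in the profiles was not tested. The summed level was 82.3 CPM per kb in the control libraries of E2f4 OE, and 277 in E2f4 nt, 217 in Tead1 nt and 306 CPM per kb in Atf3 nt. Genes of groups 1 to 4 made up 21.3% of the sum in the E2f4 OE control against 11.4% in E2f4 nt, and genes of groups 9 to 13 made up 29.3% against 37.9%. In the E2f4 OE control Hoxa2 was at 5.24 and 7.2 CPM and Hoxc10 at 3.71 and 4.84 CPM, whereas in the passage libraries Hoxa2 did not exceed 0.84 CPM and Hoxc10 was at 22.9 CPM or more. The experiments were not compared by a test. Transcripts of the Y chromosome gene Ddx3y were at 0 in every passage library and at 7.36 CPM or more in every manipulated library, and Xist, which marks cells with an inactive X chromosome, was at 197 CPM or more in them all.

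**Figure D5:**
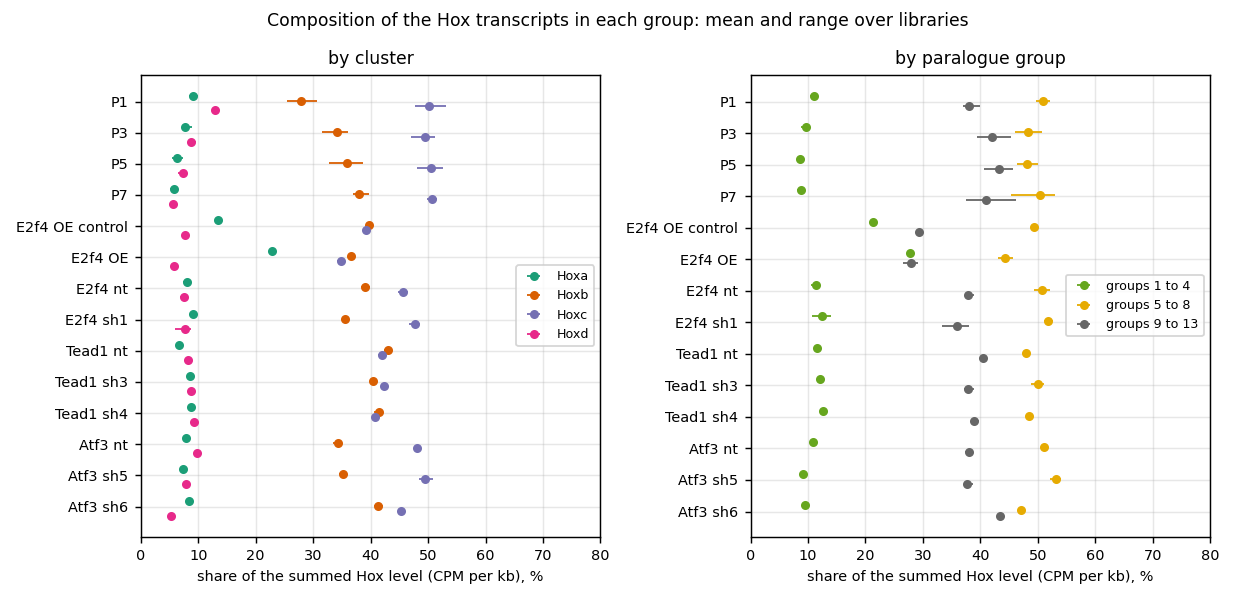
Share of the summed Hox level (CPM per kb) held by each cluster (left) and by paralogue groups 1 to 4, 5 to 8 and 9 to 13 (right) in every group, as mean and range over libraries, in percent. Hoxb grows and Hoxd shrinks from P1 to P7, and the 2 E2f4 overexpression groups stand apart with the largest shares of Hoxa and of groups 1 to 4.

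With E2f4 overexpression 8 Hox genes, among them the trunk genes Hoxc8 and Hoxb9, were lower, and 2, among them the anterior gene Hoxa2, were higher. Of 29 Hox genes tested, 2 were higher (28.9% of all 13199 genes) and 8 lower (28.2%), with a median log2 fold change of -0.39 against 0.01 over all genes. The share of lower Hox genes was near that of all genes, and the share of higher ones below it. Hoxc8 was at 16.6 and 13.4 CPM in E2f4 OE and 26.9 and 30.5 in the control (-0.93 ± 0.15, edgeR adjusted p = 0.000433). Hoxb9 was at 26.3 and 25.5 CPM against 36 and 44.4 (-0.63 ± 0.14, edgeR adjusted p = 0.00249). All 10 genes that passed had groups of libraries that did not overlap, with 2 libraries a group.

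Hoxd4, which patterns the neck, was the 1 gene past 2-fold, at 0.982 and 0.812 CPM in E2f4 OE and 2.44 and 2.82 in the control (-1.53 ± 0.32, edgeR adjusted p = 0.00207). Hoxd8 stood at 4.65 and 5.26 CPM against 8.21 and 10.4 (-0.90 ± 0.19, edgeR adjusted p = 0.0023), and Hoxc13 at 1.93 and 2.39 against 4.5 and 3.92 CPM (-0.98 ± 0.25, edgeR adjusted p = 0.00634). Both were lower in each E2f4 OE library. Lower too were Hoxb2, at 2.51 and 2.39 against 4.5 and 4.55 CPM (-0.88 ± 0.23, edgeR adjusted p = 0.00674), Hoxb3, at 4.98 and 6.36 against 7.55 and 9.34 CPM (-0.58 ± 0.20, edgeR adjusted p = 0.0283), and Hoxb4, at 2.65 and 2.48 against 3.45 and 5.82 CPM (-0.83 ± 0.28, edgeR adjusted p = 0.0266). The call of Hoxb3 was lost with DESeq2. Those of Hoxb3, Hoxb4 and Hoxc13 were also lost when some single library was left out, which leaves 1 library in a group.

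Hoxa2, a gene of the hindbrain and the branchial arches, was at 11.3 and 12.8 CPM in E2f4 OE and 5.24 and 7.2 in the control (0.96 ± 0.19, edgeR adjusted p = 0.00147), with no overlap. Ddx3y was at 36.5 and 36.8 CPM in the control and at 7.36 and 9.96 CPM in E2f4 OE, and Xist at 1156 and 1400 against 560 and 686 CPM. The skeletal muscle markers summed to 67.4 to 77 CPM in the control and 23 to 24.1 CPM in E2f4 OE. Most of this sum was Acta1, at means of 70.1 and 21.5 CPM, with Myh3, Myog, Myod1 and Pax7 at 0 in both groups. The part of these differences in the Hox values was not tested. Where 28.9% of all genes were higher and 28.2% lower, 8 of the 14 Polycomb genes were higher and 2 lower, with Cbx7 at 1.68 ± 0.32 (edgeR adjusted p = 0.00115) and Cbx2 at 1.48 ± 0.15 (edgeR adjusted p = 2.55e-05), of the 10 genes of the Trithorax side 3 were higher, near the background, and 1 lower, and of the 9 TALE cofactors 4 were higher, with Pbx2 at 0.61 ± 0.15 (edgeR adjusted p = 0.00464).

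With E2f4 sh1, 1 of 31 Hox genes was higher (10% of all 12310 genes) and 2 were lower (7.79%), both below the share of all genes. Without nt replicate 2 only 1 passed. Hoxb9 was at 103, 102 and 91.4 CPM with sh1 and 131, 135 and 137 in nt (-0.44 ± 0.07, edgeR adjusted p = 0.000471). Hoxb8 was at 27.5, 30 and 25.3 against 36, 37 and 36.2 CPM (-0.40 ± 0.10, edgeR adjusted p = 0.0102) and Hoxa10 at 24.6, 22.6 and 24 against 17.1, 19.1 and 19.6 CPM (0.35 ± 0.11, edgeR adjusted p = 0.0406). None of these 3 genes had overlapping groups, and 0 passed 2-fold. Hoxa10 lost its call with DESeq2 and with the replicate number as a block. Hoxb9 was thus lower both with more and with less E2f4, each against its own control. The skeletal muscle markers summed to 74.9 to 76.6 CPM in nt and 112 to 136 CPM with sh1, the macrophage markers to 5.71 to 10.3 and 14.2 to 19.1 CPM and the fibroblast markers to 30934 to 31910 and 23780 to 26210 CPM, and their part in the Hox values was not tested. Most of the muscle sum was Acta1, at means of 67.2 CPM in nt and 119 CPM with sh1, with Myog and Myod1 at 0 in both.

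With Tead1 knockdown the changes of Hox genes were small. Hairpin sh3 gave 3 higher (17.6% of all 13012 genes) and 3 lower (17.7%) of 34 tested, and sh4 gave 3 higher (14.4%) and 4 lower (14.7%). The median log2 fold changes were 0.07 and 0.11, and 0.00 over all genes with either, and in each direction the Hox share was below that of all genes. Without sh4 replicate 1, 2 or 3 or nt replicate 3, the genes passing with sh4 were 2, 3, 3 and 4. Between the 2 hairpins no Hox gene that passed with either of them differed at an adjusted p under 0.05, in a test added after seeing the data, where Hoxd9 came nearest (edgeR adjusted p = 0.0613); this does not show that the hairpins act alike.

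Passing with both hairpins, which share their control libraries, were Hoxa7, Hoxb9, Hoxc6 and Hoxc8. Hoxc6 was at 33.5, 32.3 and 31.5 CPM with sh3, 32.3, 32.6 and 33 with sh4 and 40.7, 41.8 and 43 in nt (-0.37 ± 0.06, edgeR adjusted p = 2.01e-05 and -0.36 ± 0.06, edgeR adjusted p = 4.16e-05). Hoxb9 was at 94.7, 93.3 and 94.4, at 101, 100 and 101 and in nt at 122, 115 and 115 CPM (-0.32 ± 0.04, edgeR adjusted p = 1.16e-06 and -0.22 ± 0.04, edgeR adjusted p = 0.000328). Both were lower in each knockdown library than in any control library.

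Hoxc8 went the other way, at 68.2, 66 and 61.2 CPM with sh3 and 60, 58.3 and 57.7 with sh4 against 53.3, 53.8 and 52.2 in nt (0.30 ± 0.05, edgeR adjusted p = 6.8e-05 and 0.14 ± 0.06, edgeR adjusted p = 0.0465). Hoxa7 was at 5.98, 6.18 and 5.06 CPM with sh3, 4.84, 4.13 and 4.31 with sh4 and 3.76, 2.55 and 3.21 in nt (0.85 ± 0.18, edgeR adjusted p = 0.000298 and 0.48 ± 0.18, edgeR adjusted p = 0.0469). The groups did not overlap for either gene. With sh4 the calls of both were lost with DESeq2 and without some single libraries. Passing with sh3 alone were Hoxd9 (-0.56 ± 0.16, edgeR adjusted p = 0.0069) and Hoxd13 (0.95 ± 0.27, edgeR adjusted p = 0.00581), and with sh4 alone Hoxb4 and Hoxc11, which were lower, and Hoxc13, which was higher, at edgeR adjusted p-values of 0.0208 to 0.041, calls that were each lost in some alternatives. Of the Polycomb genes 2 were higher and 2 lower with sh3, and 3 higher and 1 lower with sh4. The skeletal muscle markers summed to 98.4 to 100 CPM in nt, 64.9 to 75.5 CPM with sh3 and 73.7 to 83.5 CPM with sh4, without overlap of the knockdowns with nt, and their part in the Hox values was not tested. Most of this sum was Acta1, at means of 93.9, 66.5 and 73.4 CPM, with Myog and Myod1 at 0 in each group.

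With Atf3 knockdown, sh5 gave 3 Hox genes higher (17.7% of all 13345 genes) and 5 lower (18.1%) of 34 tested, and sh6 gave 1 higher (23.8%) and 8 lower (26.0%). The median log2 fold changes were -0.10 and -0.13, against -0.03 and -0.02 over all genes, and in each direction the Hox share was below that of all genes. Fitted with its control alone, sh5 gave 5 Hox genes and sh6 gave 18, and without nt replicate 2 or 3 sh5 gave 4 and 3. The groups differed in more than the Hox genes: the summed fibroblast markers were at 35554 to 37408 CPM in nt, 21511 to 34244 CPM with sh5 and 13612 to 14602 CPM with sh6, the skeletal muscle markers at 37.9 to 39.3, 16.7 to 18.3 and 199 to 216 CPM, and Ddx3y at 79.9 to 87.2, 92.1 to 104 and 120 to 136 CPM. Most of the skeletal muscle sum was Acta1, at means of 34.9 CPM in nt, 13.4 CPM with sh5 and 206 CPM with sh6. The part of all these differences in the Hox values was not tested. The library of sh5 replicate 3 stood apart: set against replicates 1 and 2 its counts gave 55.9 and 59.9 for chi-square over degrees of freedom, where those 2 gave 3.2 against each other. Without it sh5 gave 10 Hox genes, 4 higher and 6 lower, among them all 8 named with it.

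Hoxc4, Hoxd8 and Hoxd9 were lower with both hairpins, which share their control. Hoxd8 was at 40.6, 38.9 and 39.3 CPM in nt, 30.9, 34.7 and 33.3 with sh5 and 16.9, 15.1 and 16.1 with sh6 (-0.26 ± 0.09, edgeR adjusted p = 0.0362 and -1.30 ± 0.09, edgeR adjusted p = 1.38e-06). Hoxd9 was at 8.14, 7.35 and 9.65 CPM in nt, 3.9, 5.22 and 2.26 with sh5 and 4.42, 4.2 and 4.53 with sh6 (-1.14 ± 0.25, edgeR adjusted p = 0.00709 and -0.94 ± 0.25, edgeR adjusted p = 0.00993). Hoxc4 was at 17, 16.4 and 17.6, at 11.9, 13 and 9.08 and at 12.6, 9.35 and 11.9 CPM (-0.58 ± 0.15, edgeR adjusted p = 0.016 and -0.59 ± 0.15, edgeR adjusted p = 0.00907). Every knockdown library of these 3 genes was below every control library. The call of Hoxd8 with sh5 was lost in 7 alternatives, among them the fit of the 2 groups alone. The last value of each sh5 set is the library that stood apart, and without it Hoxd9 was at -0.85 (edgeR adjusted p = 0.0014) and Hoxc4 at -0.42 (edgeR adjusted p = 0.0151).

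Other members parted between the hairpins. Hoxc8 was at 83.2, 80.4 and 79.2 CPM in nt, 102, 101 and 93.4 with sh5 and 39.5, 41.2 and 43.9 with sh6, so that it passed in opposite directions (0.28 ± 0.07, edgeR adjusted p = 0.0138 and -0.96 ± 0.07, edgeR adjusted p = 3.28e-06). Its call with sh5 was lost without some single libraries. Hoxd3 was at 6.96, 7.08 and 9.01 CPM in nt, 5.58, 5.78 and 2.48 with sh5 and 2.15, 2.22 and 1.34 with sh6, and passed with sh6 alone (-2.01 ± 0.32, edgeR adjusted p = 0.000473). Hoxd13 was at 1.15, 2.03 and 1.15 CPM in nt, 3.52, 3.38 and 3.78 with sh5 and 2.21, 2.34 and 1.92 with sh6, and passed with sh5 alone (1.31 ± 0.25, edgeR adjusted p = 0.00385). Hoxa4 was at 2.16, 2.03 and 1.29 CPM in nt and 0.758, 0.563 and 0.733 with sh5 (-1.41 ± 0.29, edgeR adjusted p = 0.00568), against 1.69, 1.68 and 1.51 with sh6. The remaining genes that passed were Hoxb9, higher, and Hoxc9, lower, with sh5, and Hoxa9, higher, and Hoxa5, Hoxb3 and Hoxd4, lower, with sh6. Each of these calls except that of Hoxa9 was lost in 5 to 8 alternatives. Hoxd3, Hoxd13 and Hoxa4 are named because their change exceeded 2-fold. With sh6 the noncoding gene Haglr of the Hoxd cluster was lower as well (-3.55 ± 0.39, edgeR adjusted p = 3.83e-05), as were 5 of the 9 TALE cofactors, with Pknox2 at -2.70 ± 0.23 (edgeR adjusted p = 5.52e-06).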

How the data were processed

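RNA-seq and ATAC-seq files were used, and bisulfite samples were not analysed here. Per the labels and the study's methods, the authors ran Trimmomatic 0.39 on the RNA reads, HISAT2 2.2.1 against mm10 and HTSeq 0.12.4 without strand, and the deposited values are raw counts per gene. Rows naming no gene were left out (0 in passage libraries, 7.5 to 16.8% in the others). ATAC reads were aligned with Bowtie2 2.3.5.1, duplicates were removed and MACS2 called peaks per sample. The deposited peak lists give fold enrichment, a ratio, and -log10 p and q, and their depth is unknown.

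CPM used TMM library sizes. Each experiment was fitted with edgeR 4.0.16 (R 4.3.3, limma 3.58.1) by quasi-likelihood over all genes left by filterByExpr, with Benjamini-Hochberg adjustment, and DESeq2 1.42.0 was an alternative. Scripts were tested on simulated data. A gene passed at an adjusted p under 0.05 and, over passages, was called with a change over 2-fold as well. Consensus peaks were those in more than 60% of replicates, and samples were compared with exact permutation tests in scipy 1.17.1 (Python 3.11.15). RefSeq, GRCm38, gave positions and exon lengths, and 24435 of 24984 symbols matched. Replicate pairs differed by more than sampling noise (chi-square per degree of freedom of 2.74 to 59.9, highest for Atf3 sh5 replicate 3).

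The members and lists (TALE, Trithorax, Polycomb, upstream signals, positional and noncoding genes, cell markers) were chosen with earlier results of these data known. Given in every library were the 2 members of each cluster with the highest level per kb, members called without overlap and with a mean log2 CPM of at least 0, and members passing with both Tead1 or both Atf3 hairpins, with E2f4 OE or with E2f4 sh1. The test between hairpins, the promoter alternatives and the adjustment over clusters were added after seeing the data. Alternatives were other size factors, filters and tools, a replicate block, only the groups compared, each library left out, and other peak thresholds. The values of 1 member are counted in the totals but not reported here.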

Additional observations from a re-analysis of the deposited data

Results flagged for a closer look

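In 5 of the 57 groups of 4 passage samples examined, 1 sample stood apart from the other 3 by Dixon's criterion, which chance alone meets in about 1 group in 20. The groups were CPM values of a Hox gene at 1 passage or covered bases of the P1 ATAC samples. All 5 were CPM values. Hoxa9 was at 6.91 CPM in P5 replicate 2, Hoxb5 at 4.26 CPM in P5 replicate 3 and Hoxd8 at 23.1 CPM in P3 replicate 3, each above its group. Hoxb9 was at 93.8 CPM in P7 replicate 4 and Hoxd9 at 3.98 CPM in P3 replicate 2, each below its group.

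The 2 Atf3 hairpins differed from each other at 6 Hox genes that passed with at least 1 of them, by the edgeR test of sh6 against sh5. The log2 difference was -1.25 ± 0.07 for Hoxc8 (edgeR adjusted p = 7.61e-07), -1.04 ± 0.09 for Hoxd8 (7.32e-06), -1.28 ± 0.33 for Hoxd3 (0.00794) and -0.722 ± 0.24 for Hoxd13 (0.0298), all lower with sh6. It was 1.24 ± 0.30 for Hoxa4 (0.00593) and 0.612 ± 0.13 for Hoxa9 (0.00223), both higher with sh6. The fibroblast and skeletal muscle marker sums differed between the hairpins too, and their part in these differences was not tested.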

How the results depend on the processing

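Of 89 single-gene results that passed, 58 passed under every alternative, and of 1116 alternatives 983 kept the call, 133 lost it and 0 turned its direction. At least 10 counts in every library left 5 called Hox genes at P7 against P1 and 1 at P7 against P3. DESeq2 gave 4 with Tead1 sh4, and fits of only the groups compared gave 5 with Atf3 sh5 and 18 with Atf3 sh6. Covered bases of P7 over P1 were 0.74 with equal numbers of peaks per sample, the strongest ones, and 0.849 as a share of all covered bases (exact permutation p = 0.0286 for each). Gained peaks were 2 and lost peaks 9 with equal numbers of peaks, 6 and 0 with a peak in every replicate, and lost peaks were 3 at a -log10 q of at least 5. The cause of these shifts was not tested.

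With each library left out, called genes numbered 3 to 4 (P3 against P1), 8 to 10 (P7 against P1) and 3 to 5 (P7 against P3, with 5 without P3 replicate 4). Genes passing numbered 7 to 12 (E2f4 OE), 1 to 3 (E2f4 sh1), 6 to 7 (Tead1 sh3), 2 to 6 (Tead1 sh4), 3 to 10 (Atf3 sh5) and 6 to 9 (Atf3 sh6). Where this left 1 library in an E2f4 overexpression group, it was assumed to vary like the other group. The ratio of covered bases was 0.83 to 0.914, gained peaks 8 to 15, lost peaks 5 to 11 and promoters without overlap 15 to 19.

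With the replicate number as a block the counts were 4 (P3 against P1), 8 (P7 against P1), 3 (P7 against P3), 12 (E2f4 OE), 2 (E2f4 sh1), 6 and 5 (Tead1 sh3 and sh4) and 8 each for Atf3 sh5 and sh6. Same-numbered libraries share only a number: their deviations correlated at -0.26 to 0.28 over passages, 0.14 in E2f4 OE, 0.02 to 0.03 in the E2f4 knockdown, -0.04 to 0.11 in Tead1 and -0.16 to 0.14 in Atf3. Members under 1 CPM, and peaks whose depth is unknown, limit what could be detected.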
